A study of Mus musculus with 4 samples.

Results

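The endothelial cells of LATS1/2-KO mammary glands were split into a venous and a capillary class and compared within each mouse. Members were chosen by the measured UMIs of 11 genes. A cell counted as endothelial if it carried UMIs (unique molecular identifiers, 1 per captured RNA molecule) of at least 3 of the 5 genes *Pecam1*, *Cdh5*, *Egfl7*, *Emcn* and *Ptprb*, had 0 UMIs of the leukocyte gene *Ptprc* and had fewer than 10 UMIs per 10000 of the epithelial gene *Epcam*. It was called venous if *Selp* and *Ackr1* together gave at least 2 UMIs and more than *Cd36* and *Kdr* together, and capillary if *Cd36* and *Kdr* gave at least 2 UMIs and *Selp* and *Ackr1* gave 0. The 2 LATS1/2-KO libraries held 441 endothelial cells by these gates, of which 324 fell into a class, 203 venous and 121 capillary, out of 18200 cells kept over all 4 libraries. Replicate 1 gave 111 venous and 49 capillary cells, replicate 2 gave 92 and 72, and the other 64 and 53 endothelial cells met neither gate. No endothelial barcode was shared between libraries (0 in each pair).

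The data are droplet-based 3' single-cell RNA counts from 4 mice, adult nulliparous females of 3 to 10 months. Each library holds live cells, sorted with Calcein Blue, from the pooled mammary glands of 1 mouse, after the lymph nodes of the fourth gland pair were taken out. Both groups were Lats1f/f;Lats2f/f with the R26-lsl-EYFP reporter, in which EYFP is made only after Cre has acted, and received 5 doses of 2 mg tamoxifen. Glands were taken 7 days after the last dose. LATS1/2-KO mice (n = 2) also carried Krt8-CreERT2, whereas CTL mice (n = 2) had no Cre, and LATS1/2-KO replicate 1 had 1 EYFP allele and replicate 2 had 2. The *Krt8* promoter drives Cre in luminal epithelial cells, so the endothelium studied here was not the cell type targeted, and the differences below lie between 2 classes of endothelial cells of the same mice. EYFP stood at 13.4 and 11.1 CPM (UMIs of the gene per 1000000 UMIs of the sum) in the venous sums of replicates 1 and 2 and at 8.06 and 9.17 in the capillary sums, against 78.6 and 108 over all kept cells of the same libraries. *Lats1* gave 21.7 and 11.1 CPM in venous and 24.2 and 12.2 in capillary sums. Whether these 3' tags lie in the deleted exons is not given in the sources used here, so they are no check of the deletion.

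Venules and capillaries do different work in a tissue. Post-capillary venules are the main site at which leukocytes leave the blood: their endothelium shows selectins, integrin ligands and chemokines, and ACKR1 carries chemokines across it. Capillaries exchange nutrients, and in the mammary gland and its fat pad they take up fatty acids through lipoprotein lipase, its anchor GPIHBP1, the transporter CD36 and the carrier FABP4. Arterial endothelium is marked by Notch signalling and by the gap junction proteins connexin 37 and 40.

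The gate genes themselves separated the classes by construction and are given only as a description. *Selp*, which encodes P-selectin, stood at 1782 and 1468 CPM in the venous sums and *Ackr1* at 1558 and 1267, and both were at 0 in the capillary sums, as the gate requires. *Cd36* was 526 and 501 CPM in the venous sums against 2306 and 2106 in the capillary sums, and *Kdr*, the main VEGF receptor, 145 and 147 against 290.3 and 336. Most venous cells also carried a capillary gate gene: 87 of 111 and 80 of 92 had at least 1 UMI of *Cd36* or *Kdr*. The unclassified endothelial cells lay between, with *Selp* at 472 and 474 CPM and *Cd36* at 1287 and 1112.

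Few cells sat at the lower edge of a gate, at 2 UMIs. With exactly 2 gate UMIs there were 5 and 2 venous cells, whose sums held 955 and 1291 CPM of *Vwf* and 0 and 215 CPM of *Gpihbp1*, and 4 and 8 capillary cells, with 228 and 425 CPM of *Vwf* and 759 and 992 CPM of *Gpihbp1*. Just below the gates, 3 and 4 cells had 1 venous gate UMI and 5 and 4 cells had 1 capillary gate UMI. The larger excluded set carried both pairs with the capillary pair at least equal, 46 and 36 cells. It held 281 and 396 CPM of *Vwf* and 649.5 and 839 CPM of *Gpihbp1*, between the class values of both genes. With gates of 3 UMIs and the other pair at 0, venous cells fell from 111 and 92 to 21 and 11. The venous class thus depended on how cells with both pairs were placed.

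Venous cells were deeper than capillary cells. Their median was 5090 and 5554 UMIs per cell in replicates 1 and 2, against 4366 and 3334 in capillary cells, and the 4 sums held 614345 and 562493 venous and 241002 and 314306 capillary UMIs. A low gene was therefore easier to detect in the venous sums, and genes at 0 are given below with the limit that 3 UMIs over both mice would set. Intervals and limits of this kind cover counting error only.

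Among endothelial cells, the venous share was 49.6% in LATS1/2-KO replicate 1 (95% Clopper-Pearson interval 42.8 to 56.3, 111 of 224 cells) and 42.4% in replicate 2 (35.7 to 49.3, 92 of 217). In CTL it was 38.9% (23.1 to 56.5, 14 of 36 cells) and 17.6% (6.76 to 34.5, 6 of 34). Means were 46.0% ± 5.06 and 28.3% ± 15.0 (SD, n = 2 mice each), a difference of 17.7 percentage points that did not pass a two-sided exact permutation test (p = 0.33, the smallest p that 2 against 2 mice allow). Endothelial cells of any class made up 4.98% and 4.12% of the kept cells of LATS1/2-KO and 0.733% and 0.967% of those of CTL, so the CTL shares rest on few cells. With gates of 3 UMIs and the other pair at 0, the order of the classes turned: 21 venous and 45 capillary cells in LATS1/2-KO replicate 1, and 11 and 64 in replicate 2.

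**Figure D1:**
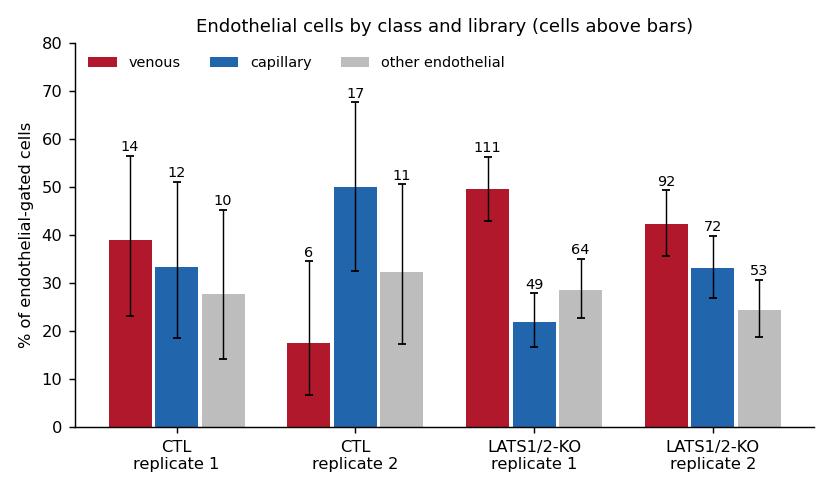
Share of endothelial cells (%) in each class for the 4 libraries, with bars for venous, capillary and other endothelial cells, 95% Clopper-Pearson intervals as error bars and the number of cells above each bar. Under these gates venous cells outnumbered capillary cells in both LATS1/2-KO mice (111 and 92 against 49 and 72), an order that the stricter gates turned. The CTL intervals are wide because CTL sums hold 6 to 17 cells.

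To ask which other genes separate the classes, UMIs were summed per class and mouse and tested with edgeR's quasi-likelihood test with the mouse as block and Benjamini-Hochberg adjustment over all genes tested; the 11 genes of the gates were left out. Of 5655 genes, 589 (10.4%) passed an adjusted p of 0.05, 309 (5.46%) higher in venous and 280 (4.95%) higher in capillary cells. The difference had the same sign in both mice for 588 of the 589 (the exception, the complement gene *C3*, is named because it alone differed), and 478 were at least 2-fold apart. Values below are CPM scaled by TMM factors, replicate 1 before replicate 2, and log2 values are the fitted venous over capillary difference ± SE. This SE was worked back from the log2 value and the moderated F statistic of the test, and is not the measured spread between mice. DESeq2 was stricter and called 129 genes (69 venous, 60 capillary), all among the 589, and with either mouse left out and the spread taken from CTL, 115 and 117 genes passed. RLE in place of TMM kept all 589 calls and their directions. The gene lists were chosen with earlier results of these data known, so their counts are a description and no independent support. Gene lists are described by their counts; where 0 members of a list passed in a direction, edgeR gave 0 at an unadjusted p under 0.05 too, except 1 for arterial genes in the venous and 2 for tip cell genes in the capillary direction, and DESeq2 called 0.

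**Figure D2:**
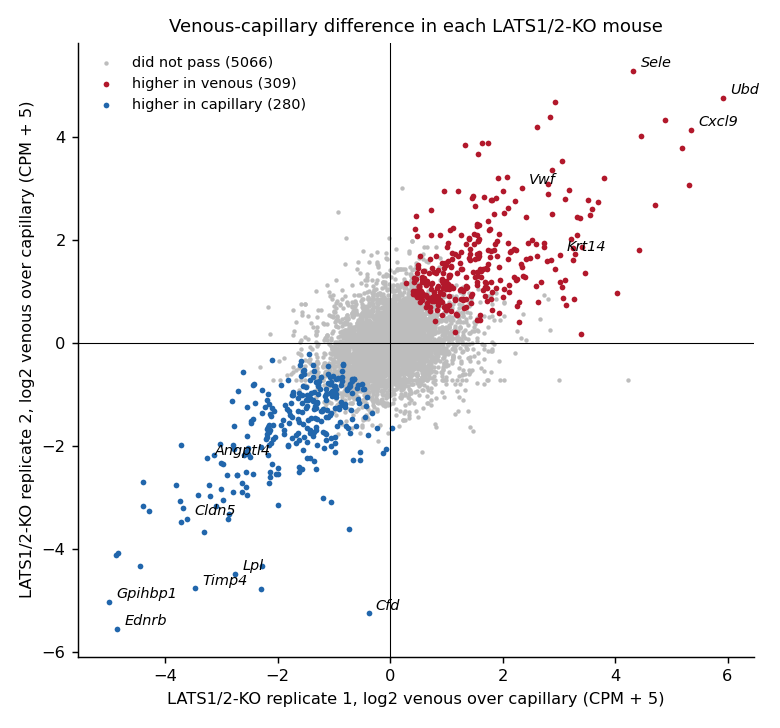
Difference between venous and capillary sums (log2 of CPM plus 5) in LATS1/2-KO replicate 1 (horizontal axis) and replicate 2 (vertical axis), 1 point per tested gene, with the 309 genes higher in venous cells in red, the 280 higher in capillary cells in blue and the rest in grey. Called genes lie in the lower left and upper right quadrants except 1, and *Cfd* lies far from the diagonal, with most of its capillary UMIs in replicate 2.

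The venous markers that the gate did not use followed the class. Of 14 listed and tested, 11 were higher in venous cells and 0 in capillary cells, against 5.46% and 4.95% of all genes tested, and the median log2 difference of the list was 1.62, against a median of -2.7e-05 over all tested genes. *Vwf*, the large plasma protein that tethers platelets and is stored in the same granules as P-selectin, stood at 591 and 820.2 CPM in the venous sums and 113 and 97.8 in the capillary sums. The mice did not overlap between classes. The difference was 2.75 ± 0.24 on the log2 scale (edgeR adjusted p = 1.0e-08). *Nr2f2*, the transcription factor that keeps venous identity, was 215 and 263 CPM against 76.6 and 138 (log2 1.16 ± 0.25, edgeR adjusted p = 0.0021). This smaller difference did not pass with either mouse left out (adjusted p = 0.26 without replicate 1 and 0.056 without replicate 2). *Il1r1*, the interleukin-1 receptor, was 192 and 200.4 CPM against 48.4 and 24.5 (log2 2.47 ± 0.33, edgeR adjusted p = 5.4e-06). *Lrg1*, a secreted glycoprotein of venous endothelium, was high in both classes, 3507 and 3169 against 1661 and 1134 CPM, and differed by 1.28 ± 0.22 (edgeR adjusted p = 0.00017). *Ptgs1*, the constitutive prostaglandin synthase, the matrix proteoglycan *Bgn* and the metalloprotease *Tll1* also passed. *Cytl1* passed at 124 and 124 against 88.7 and 18.3 CPM, but 54 of its 74 UMIs in the venous sum of replicate 1 came from 1 cell. *Fbln2* (log2 0.66) and *Ephb4* (0.11) were among those that did not pass. DESeq2 called 6 of the 11, and *Lrg1* did not pass without replicate 2 (adjusted p = 0.060).

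Leukocyte adhesion molecules went both ways. Of 9 tested, 3 were higher in venous cells and 1 in capillary cells, beside 5.46% and 4.95% of all genes. The 3 venous ones, *Sele*, *Vcam1* and *Icam1*, were counted among the venous markers above too. *Sele* encodes E-selectin, on which leukocytes roll after cytokines have induced it. It had 202 and 102 UMIs in the venous sums (337 and 189 CPM) and 3 and 0 in the capillary sums (12.1 and 0), a ratio of 51.2 with a counting interval of 17.4 to 249.8 (edgeR adjusted p = 5.8e-09). *Vcam1*, the ligand of the integrin VLA-4, stood at 444 and 302 CPM in venous and 32.3 and 45.9 in capillary sums, a log2 difference of 3.18 ± 0.30 (edgeR adjusted p = 2.6e-08). *Icam1*, the ligand of LFA-1, was also measured in every sum, 616 and 442 CPM in venous and 117 and 156 in capillary sums, and differed by 1.91 ± 0.24 (edgeR adjusted p = 2.6e-06); without replicate 1 it did not pass (adjusted p = 0.053). For all 3 genes both venous sums were above both capillary sums. *Podxl*, a sialomucin of the luminal surface, was 23.4 and 89.1 CPM in venous against 145 and 205 in capillary sums (log2 -1.70 ± 0.30, edgeR adjusted p = 0.00028), while *Cd34* (log2 0.40), *Jam2* (-0.45) and *Esam* (-0.42) did not pass.

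Chemokine and cytokine genes were among the widest venous differences. *Cxcl9* and *Cxcl10* encode ligands of CXCR3, the receptor of activated T and NK cells, and interferon-gamma is their known inducer. *Cxcl9* stood at 1189 and 672 CPM in the venous sums and 24.2 and 33.6 in the capillary sums, and *Cxcl10* at 1216 and 829 against 36.3 and 36.7. Every venous sum exceeded every capillary sum by more than 10-fold, with log2 differences of 4.90 ± 0.31 (edgeR adjusted p = 2.2e-11) and 4.76 ± 0.29 (edgeR adjusted p = 2.1e-11). *Csf3*, which encodes the neutrophil growth factor G-CSF, was 618 and 230.1 CPM in venous and 12.1 and 12.2 in capillary sums (log2 4.98 ± 0.37, edgeR adjusted p = 4.3e-10). The neutrophil chemokines *Cxcl1* (411 and 286 against 137 and 128 CPM) and *Cxcl2* (122 and 79.8 against 28.2 and 52.0) were higher in venous cells by smaller steps, log2 1.36 ± 0.23 (edgeR adjusted p = 0.00017) and 1.25 ± 0.35 (edgeR adjusted p = 0.018). *Hdc*, the enzyme that makes histamine, was 234 and 124 CPM in venous and 12.1 and 9.17 in capillary sums (log2 4.0 ± 0.41, edgeR adjusted p = 1.1e-07).

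*Cxcl12* was the exception among the chemokines. This homeostatic chemokine, which retains CXCR4-bearing cells, stood at 15.0 and 37.1 CPM in venous and 262 and 348 in capillary sums, a log2 difference of -3.56 ± 0.29 (edgeR adjusted p = 2.6e-09), with 24 of 65 UMIs in the capillary sum of replicate 1 from 1 cell. Of the 8 chemokines and scavenger receptors tested, 4 were therefore higher in venous (5.46% of all genes) and 1 in capillary cells (4.95%), and *Cx3cl1* (log2 -1.31), *Cxcl16* (0.82) and *Ackr3* (-0.78) did not pass. *Cxcl2* did not pass when cells with markers of other cell types were left out (adjusted p = 0.12) or without replicate 2 (0.56), nor *Cxcl1* without replicate 1 (0.12).

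These inflammatory transcripts were spread over the venous class rather than held by a few cells. At least 1 UMI of *Cxcl9* was found in 58 of 111 (52.3%) and 38 of 92 (41.3%) venous cells, against 5 of 49 (10.2%) and 7 of 72 (9.72%) capillary cells. In epithelial cells of the same libraries the share was 1.42% and 0.822%, at medians of 7895 and 8344 UMIs per cell. These cells had at least 10 *Epcam* UMIs per 10000 and 0 UMIs of *Ptprc* and of the 5 endothelial genes. That choice favours cells with little free endothelial RNA, so their shares can understate the background. Thinned to 2000 UMIs per cell, the shares were 42.7% and 27.6% of venous and 4.76% and 7.81% of capillary cells. *Cxcl10* was found in 72 of 111 and 55 of 92 venous cells, in 5 of 49 (10.2%) and 7 of 72 (9.72%) capillary cells, and in 10% and 10.5% of epithelial cells at their greater depth. Thinned to 2000 UMIs, these shares were 57.3% and 49.4% of venous, 4.76% and 7.81% of capillary and 4.44% and 4.39% of epithelial cells. *Cxcl9* or *Cxcl10* was found in 79 of 111 and 63 of 92 venous cells, with a median of 3 UMIs in both mice and a highest value of 164 and 75, so the class varied widely within itself. *Sele* was found in 56 of 111 (50.5%) and 44 of 92 (47.8%) venous cells and in 1 of 49 and 0 of 72 capillary cells. A count of 0 of 72 allows a share of cells with a UMI of up to 4.17%, which is not a limit on cells that express the gene.

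Most interferon response genes were higher in venous cells. Of 14 tested, 10 passed in that direction (5.46% of all genes) and 0 in the other, with a list median of 1.34 (log2); the members were *Gbp2*, *Gbp4*, *Gbp7*, *Ifit1*, *Ifit3*, *Isg15*, *Oasl2*, *Bst2*, *Ifitm3* and *Irf7*. *Gbp2*, a guanylate-binding protein that acts against intracellular microbes, stood at 626 and 375 CPM in venous and 24.2 and 104 in capillary sums (log2 2.82 ± 0.34, edgeR adjusted p = 1.6e-06). *Isg15*, a ubiquitin-like modifier, was 307 and 414 CPM against 40.3 and 135 (log2 2.05 ± 0.27, edgeR adjusted p = 5.6e-06), and *Ifit3*, which is part of a complex that binds viral RNA, was 122 and 152 against 8.06 and 42.8 (log2 2.35 ± 0.37, edgeR adjusted p = 6.1e-05). In all 3 genes the capillary sum of replicate 2 was above that of replicate 1, and still below both venous sums. *Irf1* (log2 0.76), *Stat2* (-0.11) and *Rsad2* (-0.05) were among those that did not pass. DESeq2 called 4 of the 10, and *Ifit3* did not pass with either mouse left out (adjusted p = 0.21 and 0.077).

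Several other genes stood among the 12 largest venous differences of genes with at least 50 UMIs. *Ubd*, which encodes the ubiquitin-like modifier FAT10, was 788 and 379 CPM in venous and 8.06 and 9.17 in capillary sums (log2 5.94 ± 0.38, edgeR adjusted p = 2.2e-11). *Gbp5*, another guanylate-binding protein, had a ratio of 16.3 (counting interval 5.43 to 80.6) and the protease inhibitor *Serpina3g* one of 31.3 (5.42 to 1258). *Sectm1a*, a secreted and transmembrane protein, had 63 and 41 UMIs in the venous sums and 0 in both capillary sums, so it was at least 17.5-fold higher, and did not pass without replicate 2 (adjusted p = 0.088). The *Gbp*, *Serpina3* and *Sectm1* genes have close copies in the genome, and how reads were divided among copies could change their single values. *Ctnnal1*, which encodes a relative of alpha-catenin, and *Cysltr1*, a leukotriene receptor, were also in this set.

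Antigen presentation genes that passed were higher in venous cells too, 5 of 7 higher in venous cells, against 5.46% of all genes, and 0 in capillary cells, with a list median of 1.15 (log2). *Cd74*, the invariant chain of MHC class II, was 149 and 90.9 CPM in venous and 8.06 and 12.2 in capillary sums (log2 3.44 ± 0.44, edgeR adjusted p = 3.3e-06). It was sparse: 21 of 111 and 16 of 92 venous cells had a UMI, and 1 cell gave 32 of 89 UMIs in replicate 1. *H2-Ab1*, a class II chain, rested on 41 venous and 4 capillary UMIs. The class I peptide transporter *Tap1* was 194 and 148 CPM against 52.4 and 79.5 (log2 1.33 ± 0.29, edgeR adjusted p = 0.0025), its partner *Tapbp* 227 and 278 against 92.7 and 135 (log2 1.15 ± 0.24, edgeR adjusted p = 0.0016), and *H2-K1* 2504 and 2570.0 against 1589 and 1379 (log2 0.78 ± 0.21, edgeR adjusted p = 0.015). *B2m* (log2 0.51) and *H2-D1* (0.44) did not pass; the class I genes are close copies of each other and their split of reads is uncertain. DESeq2 called 1 of the 5. Beside these genes, the summed level of the macrophage markers was 85.2 and 213 CPM in the venous and 48.4 and 171 in the capillary sums, with 0 of 4 tested markers passing, and its part in these results was not tested.

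Promoters were searched for letters known from the interferon and NF-kappaB pathways. A few matches are printed, picked from genes described above that were higher in venous cells. Matches also lay in genes that did not pass, such as *Rsad2* and *Stat2* (interferon element) and *Irf1* (GAS element). Genes higher in capillary cells held some too, such as *Edn1* and *Vegfa* (interferon element) and *Ednrb* and *Notch4* (kappaB element). RefSeq sequence (build GRCm38.p6) of the 250 bases before the first listed start of each gene was searched on both strands for the core of the interferon-stimulated response element, GAAANNGAAA, for the GAS element of interferon-gamma targets, TTCNNNGAA, and for a kappaB element, GGGNNNTTCC, where N is any base. Sequences run 5' to 3' on the strand of the gene, with the match in capitals, which reads as the reverse complement where it lies on the other strand, and with up to 20 bases on either side in lower case.
Cxcl10, interferon element, chr5:92349073-92349122, minus strand: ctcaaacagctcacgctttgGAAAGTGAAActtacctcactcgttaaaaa
Cxcl10, kappaB element, chr5:92348964-92349013, minus strand: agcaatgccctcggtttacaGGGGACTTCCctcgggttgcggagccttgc
Gbp2, interferon element, chr3:142620584-142620633, plus strand: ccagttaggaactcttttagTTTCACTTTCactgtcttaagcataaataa
Ifit3, interferon element, chr19:34583353-34583402, plus strand: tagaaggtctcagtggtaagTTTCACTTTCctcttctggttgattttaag
Isg15, interferon element, chr4:156200861-156200910, minus strand: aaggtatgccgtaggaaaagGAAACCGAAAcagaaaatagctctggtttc
Icam1, GAS element, chr9:21015878-21015926, plus strand: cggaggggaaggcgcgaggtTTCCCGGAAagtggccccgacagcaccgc
Sele, GAS element, chr1:164048074-164048122, plus strand: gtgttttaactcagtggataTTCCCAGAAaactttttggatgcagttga
Cxcl1, kappaB element, chr5:90891154-90891203, plus strand: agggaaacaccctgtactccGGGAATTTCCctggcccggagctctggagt
Ubd, kappaB element, chr17:37193857-37193891, plus strand: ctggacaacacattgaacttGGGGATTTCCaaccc

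Of the 309 genes higher in venous cells, 236 matched a promoter, and 26 of these (11%) held the interferon element, against 5 of 207 (2.42%) of those higher in capillary cells, 129 of 4384 (2.94%) of tested genes and 3.04% of all 27025 promoters. It was found in 6 of the 9 interferon list genes called that matched a promoter. The GAS element was found in 11% of venous and 4.35% of capillary genes, against 5.27% of tested genes and 7.18% of all promoters, and the kappaB element in 11.4% and 7.73%, against 5.5% and 4.60%. Each of the 3 matches in *Isg15* overlaps the next, and the kappaB match of *Cxcl1* overlaps a second one on the other strand. A match says only that these letters stand in the window, and binding was not measured.

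**Figure D3:**
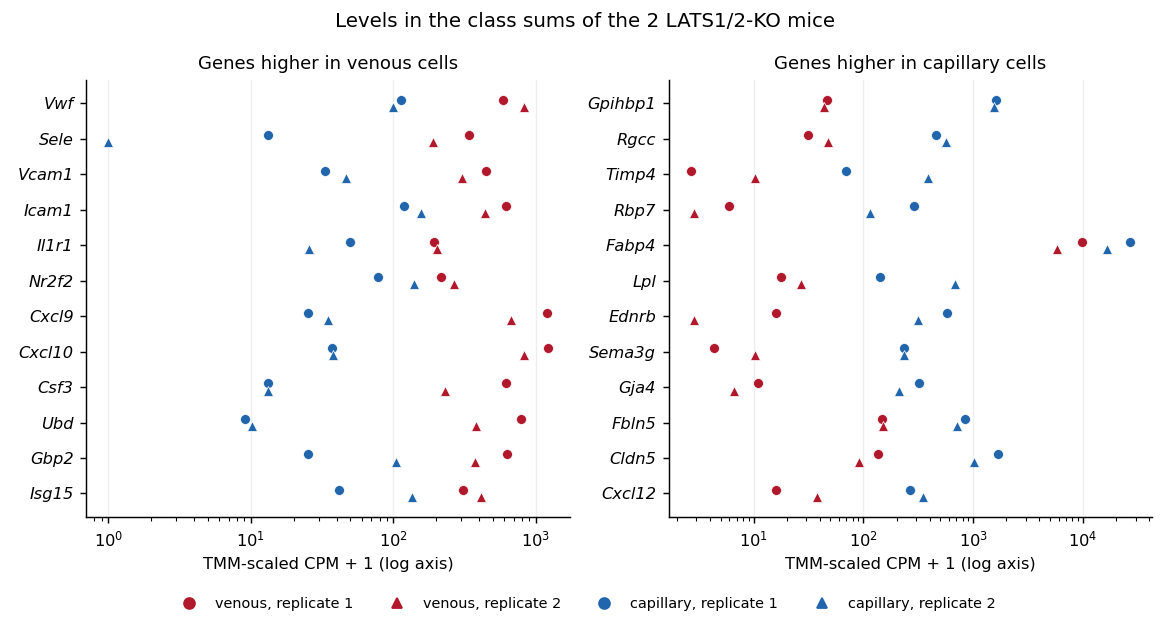
TMM-scaled CPM plus 1 (log axis) of 12 genes higher in venous cells (left) and 12 higher in capillary cells (right) in the 4 class sums of LATS1/2-KO; red marks venous and blue capillary sums, circles replicate 1 and triangles replicate 2. For every gene shown both sums of 1 class lie above both sums of the other class; *Sele* sits at 1 on this axis in the capillary sum of replicate 2, where it had 0 UMIs.

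Capillary markers outside the gate were higher in capillary cells for 9 of 13 tested, against 4.95% of all genes, with a list median of -1.48 (log2). *Gpihbp1*, which holds lipoprotein lipase at the capillary wall, stood at 45.1 and 42.7 CPM in venous and 1597 and 1535 in capillary sums, a log2 difference of -5.15 ± 0.25 (edgeR adjusted p = 4.6e-13). It was found in 37 of 49 (75.5%) and 62 of 72 (86.1%) capillary cells, 13 of 111 (11.7%) and 15 of 92 (16.3%) venous cells and 1.14% and 1.06% of epithelial cells. *Rgcc*, a cell cycle regulator of capillary endothelium, was 30.1 and 46.4 CPM in venous and 459.7 and 569 in capillary sums (log2 -3.75 ± 0.25, edgeR adjusted p = 7.7e-11), and the retinol-binding protein *Rbp7* 5.01 and 1.86 against 290.3 and 113 (log2 -5.76 ± 0.42, edgeR adjusted p = 3.6e-10). *Btnl9*, a butyrophilin-like surface protein, had 25 and 13 UMIs in the capillary sums and 0 in both venous sums, so it was at least 25.1-fold higher in capillary cells (adjusted p = 0.23 without replicate 1). *Timp4*, an inhibitor of matrix metalloproteinases, differed between mice as well as classes, 1.67 and 9.28 CPM in venous and 68.5 and 382 in capillary sums (log2 -5.29 ± 0.40, edgeR adjusted p = 5.9e-10). *Sparcl1*, *Cd300lg* and *Tcf15* also passed.

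*Aqp1*, a water channel listed as a capillary marker, went against its list. It was 2853 and 2724 CPM in venous and 706 and 348 in capillary sums (log2 2.47 ± 0.24, edgeR adjusted p = 6.1e-08). Of the cells, 107 of 111 and 90 of 92 venous cells carried it against 31 of 49 and 31 of 72 capillary cells. The direction was the same in CTL, 1920.1 and 3713 CPM in venous and 16.6 and 220.2 in capillary sums. *Car4*, a carbonic anhydrase that marks capillaries of several organs, did not pass (log2 0.52), nor did *Meox2* (0.19) or *Fabp5* (-0.43).

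Lipid uptake and caveola genes were higher in capillary cells for 6 of 10 tested, against 4.95% of all genes, and in venous cells for 0, with a list median of -1.32 (log2). Among the 6, *Gpihbp1* and *Fabp4* were counted with the capillary markers too. *Fabp4*, the fatty acid carrier of fat pad capillaries and adipocytes, was abundant in both classes, 9794 and 5802 CPM in venous and 26984 and 16389 in capillary sums, and differed by -1.48 ± 0.26 (edgeR adjusted p = 0.00029). *Lpl*, lipoprotein lipase itself, was 16.7 and 26.0 CPM against 141 and 685 (log2 -4.14 ± 0.33, edgeR adjusted p = 1.2e-09), and did not pass without replicate 2 (log2 -3.05, adjusted p = 0.29). *Angptl4*, an inhibitor of that lipase, was 60.1 and 14.8 CPM against 617 and 88.7 (log2 -3.17 ± 0.29, edgeR adjusted p = 1.7e-08); 63.5% and 43.3% of epithelial cells carried it, and the part of free RNA in its level was not tested. *Pparg*, the nuclear receptor that controls fatty acid genes, was 30.1 and 14.8 CPM against 84.7 and 91.7 (log2 -1.97 ± 0.37, edgeR adjusted p = 0.00053), and *Cav1*, the coat protein of caveolae, 137 and 94.6 against 181 and 339 (log2 -1.16 ± 0.27, edgeR adjusted p = 0.0048). Adipocyte markers moved with replicate 2 of this group: their summed level was 6.68 and 29.7 CPM in the venous and 32.3 and 1452 in the capillary sums, of which *Cfd* in 1 cell gave most, and *Adipoq* had 13 UMIs in the capillary sum of replicate 2 and 0 in the other 3. With cells that carried markers of other cell types left out, the same number of the list passed, 6 of 9 tested, and *Fabp4* (log2 -1.33), *Lpl* (-4.68) and *Gpihbp1* (-5.25) kept their direction and call.

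Arterial genes were higher in the capillary class. Of 10 tested, 8 passed in that direction (4.95% of all genes) and 0 in the other, with a list median of -2.30 (log2), the lowest of the lists with at least 3 members tested. *Sema3g*, an arterial semaphorin, stood at 3.34 and 9.28 CPM in venous and 234 and 235 in capillary sums (log2 -5.18 ± 0.38, edgeR adjusted p = 3.6e-10), and *Gja4*, connexin 37, at 10.0 and 5.57 against 323 and 208 (log2 -5.04 ± 0.35, edgeR adjusted p = 1.6e-10). *Fbln5*, an elastic fibre protein, was 145 and 150.3 against 839 and 715 (log2 -2.39 ± 0.21, edgeR adjusted p = 8.1e-09), and the ephrin *Efnb2*, which marks arteries from the embryo on, 26.7 and 26.0 against 141 and 107 (log2 -2.22 ± 0.32, edgeR adjusted p = 1.9e-05). *Hey1*, a Notch target, had 2 venous and 24 capillary UMIs, a ratio of 23.7 (counting interval 5.89 to 207). *Bmx*, *Sox17* and *Dll4* also passed, and *Jag1* (log2 -0.68) and *Mecom* (0.63) did not. The gate on *Cd36* and *Kdr* does not separate arterial from capillary cells: at least 2 of the 5 genes *Sema3g*, *Gja4*, *Gja5*, *Bmx* and *Hey1* were found in 17 of 49 (34.7%) and 21 of 72 (29.2%) capillary cells and in 1 of 111 and 1 of 92 venous cells. Of these capillary cells, 12 and 16 carried *Gpihbp1* too.

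Notch pathway genes were higher in capillary cells for 5 of 12 tested, where 4.95% of all genes were, and in venous cells for 0. Among the 5, *Hey1* and *Dll4* were counted with the arterial genes too. The ligand *Jag2* had a capillary ratio of 17.8 (counting interval 5.48 to 91.7, 3 venous and 27 capillary UMIs). The ligand *Dll4* was 45.1 and 37.1 CPM in venous and 125 and 61.1 in capillary sums (log2 -1.15 ± 0.32, edgeR adjusted p = 0.019), the endothelial receptor *Notch4* 11.7 and 24.1 against 64.5 and 67.3 (log2 -1.87 ± 0.42, edgeR adjusted p = 0.0035), and the target *Nrarp*, a feedback inhibitor, 28.4 and 24.1 against 80.6 and 91.7 (log2 -1.71 ± 0.35, edgeR adjusted p = 0.0012). The receptor *Notch1* (log2 -0.28) and the target *Hes1* (-0.22) did not pass. DESeq2 called 0 of the 5, and *Jag2*, *Dll4*, *Notch4* and *Hey1* did not pass with either mouse left out. *Nrarp* did not pass there either, or could not be tested.

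*Ednrb*, the endothelin receptor that clears endothelin and triggers nitric oxide release, was 15.0 and 1.86 CPM in venous and 573 and 315 in capillary sums (log2 -5.67 ± 0.35, edgeR adjusted p = 2.1e-11), and was found in 30 of 49 and 35 of 72 capillary cells but 8 of 111 and 1 of 92 venous cells. Its ligand *Edn1* was also higher in capillary cells, 109 and 148 against 274 and 333 CPM (log2 -1.24 ± 0.22, edgeR adjusted p = 0.00030). *Cldn5*, the claudin of endothelial tight junctions, was 134 and 90.9 CPM in venous and 1689.5 and 1012 in capillary sums (log2 -3.57 ± 0.22, edgeR adjusted p = 2.2e-11). It was the only member of the 6 junction genes tested that passed; *Tjp1* (log2 -0.40), *Ctnnb1* (-0.30) and *Ctnna1* (-0.05) did not. *Plvap*, the diaphragm protein of fenestrae and caveolae, was higher in venous cells, 1607 and 1659 against 1153 and 648 CPM (log2 0.91 ± 0.22, edgeR adjusted p = 0.0070). *Arhgef28*, *Clic5*, a chloride channel protein, and *Igfbp5*, an IGF-binding protein, were also among the 12 largest capillary differences, with log2 values of -3.84, -4.11 and -3.85; *Arhgef28* did not pass without replicate 1 (adjusted p = 0.22) nor *Clic5* without replicate 2 (0.11).

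Haemostasis genes went both ways, 4 of 12 higher in venous and 2 in capillary cells, next to 5.46% and 4.95% of all genes. Beside *Vwf* and *Ptgs1*, *Procr*, the receptor of protein C, was 152 and 152 CPM in venous and 109 and 61.1 in capillary sums (log2 0.88 ± 0.28, edgeR adjusted p = 0.047), and *Entpd1*, which degrades ATP and ADP, 316 and 306 against 234 and 125 (log2 0.84 ± 0.24, edgeR adjusted p = 0.020). *Plat*, the tissue plasminogen activator, was higher in capillary cells, 53.4 and 39 against 149 and 116 CPM (log2 -1.52 ± 0.28, edgeR adjusted p = 0.00045). *Thbd* (log2 -0.64) and *Nos3* (-0.11) were among those that did not pass. *Nt5e*, which turns the AMP that ENTPD1 leaves into adenosine, was 292 and 226 CPM in venous and 36.3 and 6.11 in capillary sums (log2 3.72 ± 0.37, edgeR adjusted p = 8.0e-08).

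Of the growth factor lists, 3 of 8 VEGF and angiopoietin genes, 3 of 9 tip cell genes and 4 of 12 BMP and TGF-beta genes passed in either direction, against 10.4% of all genes tested. In the first, *Angpt2*, a ligand that destabilizes vessels, was 157 and 108 CPM in venous and 16.1 and 36.7 in capillary sums (log2 2.22 ± 0.37, edgeR adjusted p = 0.00012), while *Vegfa* (log2 -3.18 ± 0.51) and *Flt4* (-1.81 ± 0.42) were higher in capillary cells, on 40 and 37 capillary UMIs. *Flt1* (-0.56), *Nrp2* (0.65) and *Tie1* (0.38) did not pass. *Angpt2* (adjusted p = 0.71 and 0.070) and *Vegfa* (0.35 and 0.42) did not pass with either mouse left out. *Flt4* could not be tested there. Of the 9 tip cell genes tested, *Angpt2*, *Insr* and *Plvap* were higher in venous and 0 in capillary cells; DESeq2 called 0. In the BMP and TGF-beta list, *Bmp4* was 105 and 96.5 CPM in venous and 24.2 and 6.11 in capillary sums (log2 2.81 ± 0.44, edgeR adjusted p = 5.2e-05). The BMP targets *Id1* (120.2 and 263 against 310.5 and 618 CPM, log2 -1.29 ± 0.21, edgeR adjusted p = 8.9e-05) and *Smad6* (log2 -2.43 ± 0.46, edgeR adjusted p = 0.00049) and the receptor *Tgfbr2* (log2 -1.08 ± 0.22, edgeR adjusted p = 0.0013) were higher in capillary cells. *Eng* (log2 0.48), *Bmpr2* (0.01) and *Id3* (-0.52) did not pass. *Bmp4*, *Id1*, *Smad6* and *Tgfbr2* did not pass with either mouse left out, or could not be tested there. DESeq2 called 1 member of this list in each direction. With gates of 3 UMIs and the other pair at 0, 0 of 8 tested members passed. Of 6 tested members of the WNT list and 3 of the cell cycle list, 0 passed in either direction, where 10.4% of all genes did.

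YAP/TAZ targets, the genes that rise when LATS kinases are lost, went both ways between the classes. Of 12 tested, 4 were higher in venous and 1 in capillary cells (5.46% and 4.95% of all genes), and the list median was -0.15 (log2). *Fjx1*, a Golgi kinase, was 352 and 113 CPM in venous and 4.03 and 9.17 in capillary sums (log2 4.88 ± 0.47, edgeR adjusted p = 3.6e-08), and without replicate 1 it did not pass (log2 3.54, adjusted p = 0.23). *Ctgf*, a matricellular protein, was 276 and 161 against 28.2 and 85.6 CPM (log2 1.82 ± 0.35, edgeR adjusted p = 0.00059), and the membrane repair protein *Myof* 190.4 and 135 against 36.3 and 55.0 (log2 1.77 ± 0.32, edgeR adjusted p = 0.00029). *Igfbp3* went the other way, 28.4 and 55.7 against 286 and 269 (log2 -2.73 ± 0.28, edgeR adjusted p = 1.2e-07). The common readouts *Cyr61* (log2 -0.08) and *Crim1* (-0.30) did not pass. *Ctgf* and *Myof* did not pass without replicate 1 or when cells were thinned to 2000 UMIs.

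Among flow-responsive and immediate early genes, most of those that passed were higher in capillary cells. Of 6 flow-responsive genes tested, *Pi16*, *Slc9a3r2* and *Klf2* were higher in capillary (4.95% of all genes) and 0 in venous cells. With DESeq2, without the block and with either mouse left out, 1 gene of the list passed each time, in the same direction. *Klf2*, the transcription factor induced by laminar flow, was 449 and 401 CPM in venous and 702 and 651 in capillary sums (log2 -0.67 ± 0.20, edgeR adjusted p = 0.025). Of 17 immediate early genes, which also respond to tissue dissociation, 6 were higher in capillary and 1 in venous cells, against the same 4.95% and 5.46%. *Egr1* was 508 and 640.2 against 1012 and 1547 CPM (log2 -1.14 ± 0.20, edgeR adjusted p = 0.00026) and *Btg2* 357 and 338 against 1012 and 819 (log2 -1.39 ± 0.20, edgeR adjusted p = 1.9e-05), whereas *Ier3*, which NF-kappaB also induces, was 2400.1 and 2306 against 976 and 1275 (log2 1.07 ± 0.21, edgeR adjusted p = 0.00098). *Jun* (log2 -0.29), *Jund* (-0.39) and *Hspa1a* (-0.48) did not pass. The summed level of the list was 15190 and 14446 CPM in venous and 16944 and 19669 in capillary sums, and the part of cell handling in these differences was not tested.

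Basement membrane genes were split and close to balance, with 3 of 14 higher in venous (5.46% of all genes), 1 in capillary cells (4.95%) and a list median of -0.08 (log2). *Col15a1*, a collagen that links the basement membrane to fibres, was 251 and 421 CPM in venous and 117 and 88.7 in capillary sums (log2 1.71 ± 0.27, edgeR adjusted p = 5.5e-05), and *Nid1* (log2 0.68 ± 0.21, edgeR adjusted p = 0.039) and *Col18a1* (1.05 ± 0.23, edgeR adjusted p = 0.0027) differed less. *Sparc*, a collagen-binding protein, was 1288 and 1349 against 2339 and 2128 (log2 -0.76 ± 0.21, edgeR adjusted p = 0.016). The main basement membrane collagens *Col4a1* (log2 -0.35) and *Col4a2* (-0.24) did not pass. Of the 6 ephrins and Eph receptors tested, *Efnb2* alone passed, in a direction that 4.95% of all genes took.

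**Figure D4:**
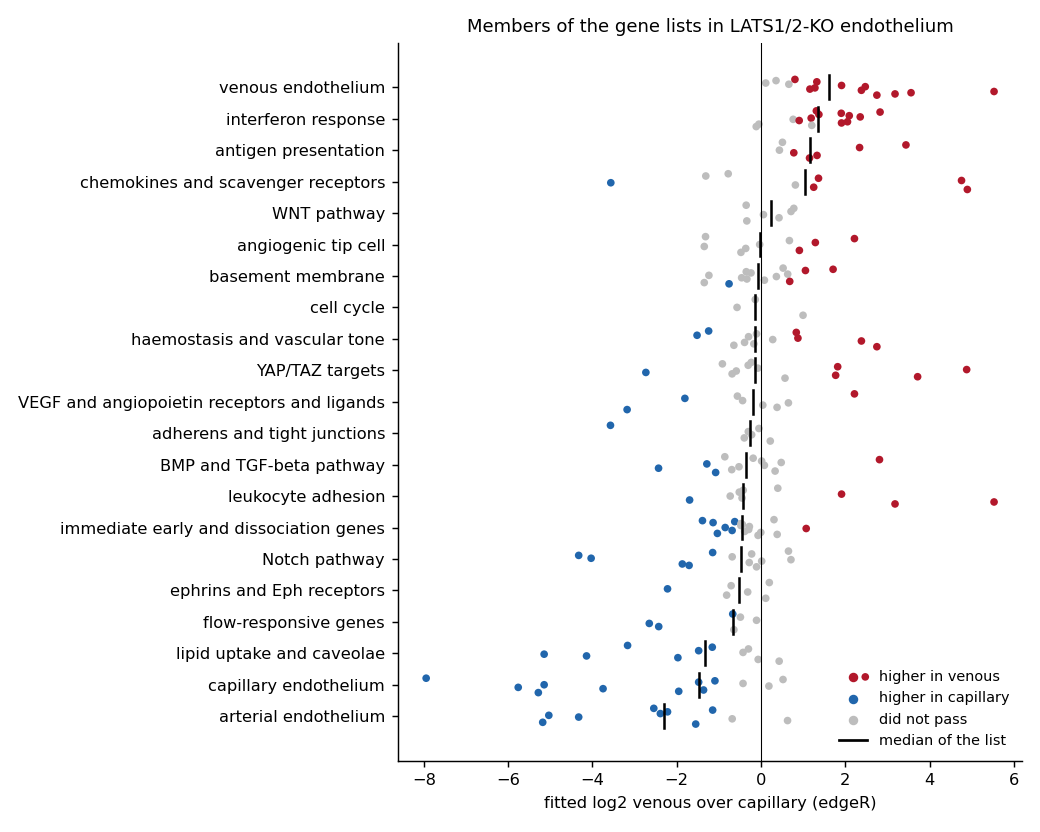
Fitted log2 venous over capillary difference of each tested member of 21 gene lists, 1 row per list, ordered by the list median (black line); red points are higher in venous cells, blue points higher in capillary cells and grey points did not pass. Venous, interferon and antigen presentation genes lie to the right (medians 1.62, 1.34 and 1.15), and arterial, capillary and lipid genes to the left (medians -2.30, -1.48 and -1.32).

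Markers of other cell types were measured in the same sums. Perivascular markers summed to 139 and 87.2 CPM in venous and 242 and 437 in capillary sums, and *Rgs5* (11.7 and 1.86 against 76.6 and 183 CPM, edgeR adjusted p = 7.0e-07) and *Pdgfrb* (3.34 and 5.57 against 32.3 and 64.2, edgeR adjusted p = 0.00012), genes of pericytes, were higher in the capillary class by edgeR, while DESeq2 called 0 perivascular markers (adjusted p = 0.11 and 0.12). *Higd1b*, a defining pericyte gene, was at 0 in both venous sums and had 7 and 6 UMIs in the capillary sums. Lymphatic markers summed to 45.1 and 40.8 CPM in venous and 101 and 388 in capillary sums. In replicate 2, all 32 capillary UMIs of *Lyve1* came from 1 cell, while *Prox1* was 15.0 and 13.0 CPM in venous and 20.2 and 6.11 in capillary sums. Epithelial markers summed to 2049 and 1089 CPM in venous and 1456 and 1305 in capillary sums, with *Krt8* higher in venous and *Csn3* and *Wfdc18* higher in capillary cells. Of 5 fibroblast markers tested, 1 passed, *Postn* in capillary cells, and their sum was 533 and 835 CPM in venous and 734 and 1412 in capillary sums. The single platelet marker tested, *Itga2b*, was higher in venous cells (45.1 and 42.7 against 12.1 and 6.11 CPM, edgeR adjusted p = 0.0074), and the defining platelet gene *Pf4* had 2, 1, 2 and 1 UMIs in the 4 sums. *Krt14*, a basal keratin named here after its values were seen, had a log2 difference of 2.53 (edgeR adjusted p = 4.9e-07), but 373 of 431 and 78 of 108 venous UMIs came from 1 cell in each mouse. Likewise 361 of the 382 capillary UMIs of *Cfd* in replicate 2 came from 1 cell.

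Cells with at least 5 UMIs of a lymphatic (without *Flt4*), perivascular, adipocyte or macrophage list, or 10 of the fibroblast or epithelial list, numbered 19 of 111 and 7 of 92 venous and 12 of 49 and 16 of 72 capillary cells. Without them, 660 of 4598 genes passed, 351 higher in venous and 309 in capillary cells, and 474 of the 528 earlier calls that could be tested again were among them. *Krt14* then differed by 0.17 (adjusted p = 0.85), and *Cxcl2*, *Postn*, *Csn3*, *Wfdc18* and *Flt4* did not pass. The counts in the lists that lead the comparison were the same or close: 11 of 13 venous markers, 10 of 14 interferon genes and 5 of 7 antigen presentation genes were higher in venous cells, and 9 of 13 capillary, 7 of 9 arterial and 6 of 9 lipid genes in capillary cells.

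In the CTL mice, which the rule did not use, most called genes leaned the same way. CTL sums held 14 and 6 venous and 12 and 17 capillary cells, too few for the test that was planned with at least 10 cells per sum, so only directions are given. Of the 248 venous-higher genes with at least 10 CTL UMIs, 170 (68.5%) were higher in the venous sum of both CTL mice, against 23.7% of the 4219 tested genes with that many UMIs. Of 220 capillary-higher genes, 171 (77.7%) were higher in the capillary sum of both, against 37.8% of the 4219. The capillary classes were not alike in make-up. At least 2 of 5 arterial genes were found in 58.3% and 64.7% of CTL capillary cells, against 34.7% and 29.2% in LATS1/2-KO. The part of this in the directions was not tested. *Vwf* was 965 and 1097 CPM (not TMM-scaled) in CTL venous and 66.5 and 94.4 in CTL capillary sums, *Sele* 497 and 423 against 0 and 0, *Cldn5* 0 and 38.5 against 1447 and 1667 and *Sema3g* 0 and 0 against 383 and 514. *Cxcl9* was 169 and 19.2 CPM in CTL venous sums, on 17 and 1 UMIs, and 0 and 0 in capillary sums, and *Cxcl10* 726 and 539, with 64 of 73 UMIs in replicate 1 from 1 cell. *Fabp4* was 7760.0 and 17028 CPM in CTL venous and 9349 and 5326 in CTL capillary sums, so the direction differed between the CTL mice.

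Lymphatic genes differed between the CTL mice. *Prox1* had 53 UMIs in the capillary sum of CTL replicate 2 and 0 in that of replicate 1. Its venous sums held 4 UMIs in replicate 1 and 1 in replicate 2. *Ccl21a*, whose symbol is listed more than once in the files, had 176 UMIs in the capillary sum of replicate 2. It had 183 in the venous sum of replicate 1 and 0 in the other sums. *Mmrn1* had 14 UMIs in the capillary sum of replicate 2 and 0 in the other CTL sums. The venous sum of replicate 1 had 0 UMIs of *Lyve1* and held 5058 UMIs of *Glycam1*. Differences between conditions in the levels of either class were not tested.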

How the data were processed

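The authors deposited 1 filtered matrix of UMI counts per library (28693 genes, 58 symbols listed more than once and tested by identifier), not normalized, made with Cell Ranger against mm10; the submitters' processing notes name version 3.1.0 and the file headers 6.1.2, and read filters beyond these are not given in the sources used here. Of 20324 barcodes, 18200 with over 500 genes and under 20% mitochondrial UMIs were kept, 3515 to 5272 per library with medians of 5962.5 to 10141 UMIs. No doublet caller was run; cells of high UMI content and cells with markers of other types were left out in alternatives instead.

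Cells were gated as described in the report and their counts summed per class and mouse. The sums were fitted in edgeR 4.0.16 (R 4.3.3; TMM, filterByExpr, glmQLFit, glmQLFTest) with mouse as block, which leaves 1 residual degree of freedom (prior 23.5, biological coefficient of variation 12%); venous and capillary sums with the same number come from the same animal. P-values were adjusted by the Benjamini-Hochberg method. DESeq2 1.42.0, RLE scaling, no filter on low counts, no block, other gates, thinned counts and each mouse left out were tried as alternatives. For the last, the CTL mice entered the fit, and the lone LATS1/2-KO mouse was assumed to vary like them. The code was tested on simulated data.

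The members and gene lists were chosen with earlier results of these data known. Named genes are the 12 largest differences in each direction among passing genes with at least 50 UMIs and the same direction in both mice, per list up to 6 members that passed and 3 that did not, and the venous and capillary lists in full. Other list members are named only to complete a count, and genes outside the lists are said to have been chosen after their values were seen. Some list members are counted but not reported here. Promoters come from RefSeq on GRCm38.p6, the assembly that mm10 also names.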

Additional observations from a re-analysis of the deposited data

Results flagged for a closer look

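Among the 86 named genes that passed in LATS1/2-KO and had at least 10 UMIs in the CTL sums, 6 had the opposite direction in both CTL mice. Over all called genes with that many CTL UMIs, 26 of 248 (10.5%) venous-higher and 7 of 220 (3.18%) capillary-higher genes did so. The difference between the conditions was not tested, because the venous sum of CTL replicate 2 held 6 cells. CTL values are CPM without TMM scaling. In replicates 1 and 2 of CTL, 1 UMI stood for 9.95 and 19.2 CPM in the venous sums and for 16.6 and 10.5 CPM in the capillary sums. Low CTL values, such as those of *Ifit1* and the venous ones of *Col18a1*, therefore rest on few UMIs.

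Both interferon genes of the 6 were higher in venous cells of LATS1/2-KO. *Ifit1* had a log2 difference of 2.09 there (75.2 and 148 CPM in venous and 8.06 and 42.8 in capillary sums), against 49.7 and 77.0 CPM in venous and 66.5 and 83.9 in capillary sums of CTL. *Isg15* had 2.05 in LATS1/2-KO, against 348 and 192 CPM in venous and 532 and 283 in capillary sums of CTL. Both CTL capillary sums of *Isg15* were above both capillary sums of LATS1/2-KO (40.3 and 135).

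The collagen gene *Col18a1* (log2 1.05 in LATS1/2-KO) was 49.7 and 19.2 CPM in CTL venous and 199.6 and 168 in CTL capillary sums. *Entpd1* (log2 0.84) was 209 and 173 against 216 and 209.7 CPM. *Krt8* (log2 0.70), the gene whose promoter drives Cre, was 79.6 and 19.2 against 149.7 and 83.9 CPM in CTL, and 289 of its 517 UMIs in the venous sum of LATS1/2-KO replicate 1 came from 1 cell. The immediate early gene *Nr4a1* (log2 -1.04, higher in capillary cells) was 577 and 1000.5 against 383 and 723 CPM in CTL.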

How the results depend on the processing

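The counts of genes that passed, 589 of 5655 tested, 309 venous and 280 capillary, depended on the test and the setting. The number of genes tested differed between settings too. DESeq2 gave 129 (69 and 60). Without the replicate block, which the design holds because both classes come from the same animals, there were 373 (191 and 182), all among the 589. Gates of 3 UMIs with the other pair at 0 gave 98 of 2521 tested (51 and 47). Cells thinned to 2000 UMIs gave 326 of 2547 tested (172 and 154). Cells thinned and gated again gave 232 of 2285 tested (143 and 89). Of these 232, 61.6% were venous, as were 58.8% without a filter on low counts and 52.5% of the 589. With 1 LATS1/2-KO mouse left out, 115 to 117 genes passed, 57 to 61 venous and 56 to 58 capillary, of 2595 and 2618 tested. The 9 other settings, among them cells with markers of other types left out (chosen after seeing the data), stayed within 1.5 times the counts reported. The stricter gates, thinned counts and left-out mice also held fewer genes or cells. The cause of these shifts was not tested.

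Of the values of the 173 named genes under all alternatives, 2212 kept direction and call, 264 no longer passed, 47 newly passed and 6 turned direction. With the stricter gates *Col18a1* was -0.26 and *Wfdc18* 0.28 on the log2 scale. *Krt8* was -0.091 with thinned cells, -0.056 with cells thinned and gated again, -0.19 without the 5% of cells with the most UMIs and -0.25 without cells marked by other types; these 6 values did not pass. DESeq2 called 1 of 6 genes called in the haemostasis list, 2 of 4 in BMP, 3 of 7 in immediate early and 1 of 4 in the basement membrane list. The difference in venous share stayed between 5.83 and 21.1 percentage points under other gates (exact permutation p of 0.33, or 0.67 with 4 of 5 endothelial genes) and between 7.09 and 28.3 with a library left out.

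The tests within CTL and of the difference between the conditions, and their alternatives, were not run, since they required 10 cells in each sum and 1 held 6. Depth limits genes near 0: 3 UMIs over both mice set the bounds given.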

Other observations

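A few genes outside the rule for named genes are given here as values, chosen after their values were seen. *Glycam1*, a sialomucin that L-selectin binds in high endothelial venules and that the lactating mammary epithelium also makes, had 23 and 16 UMIs in the venous sums of LATS1/2-KO, in 12 of 111 and 5 of 92 cells, and 0 in both capillary sums. It was at least 6.57-fold higher in venous cells (edgeR adjusted p = 0.00033), and DESeq2 did not call it (adjusted p = 0.096). In CTL it had 5058 UMIs in the venous sum of replicate 1, of which 3434 were in 1 cell, and 0 in the other 3 sums. *Cadm3*, a cell adhesion molecule, had 19 and 25 UMIs in venous and 0 in capillary sums of LATS1/2-KO, at least 7.41-fold higher (edgeR adjusted p = 0.00015), and DESeq2 did not call it (adjusted p = 0.99992).

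*Car2*, a cytosolic carbonic anhydrase, had 98 and 33 UMIs in the venous and 5 and 4 in the capillary sums of LATS1/2-KO, a log2 difference of 2.73 ± 0.40 (edgeR adjusted p = 3.0e-05), and passed with DESeq2 too (adjusted p = 0.041). It was in 45 of 111 and 21 of 92 venous cells, 5 of 49 and 4 of 72 capillary cells and 13% and 13.7% of epithelial cells. It had 0 UMIs in all 4 CTL sums. *Fgf23*, known as a phosphate-regulating hormone of bone, had 46 and 22 UMIs in venous and 0 and 6 in capillary sums, the 6 in 1 cell, and 0 in CTL (log2 2.42 ± 0.60, edgeR adjusted p = 0.0079; DESeq2 adjusted p = 0.99992, not called). Whether either gene differs between the conditions was not tested.

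*Igf2*, an insulin-like growth factor, had 0 and 1 UMIs in the venous and 11 and 27 in the capillary sums of LATS1/2-KO, a ratio of 75.2 with a counting interval of 12.7 to 3046, and 0 and 0 against 19 and 33 in CTL, so all 4 mice had the same direction.

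The make-up of the capillary class differed in value between the conditions, with no test made. *Gpihbp1* was found in 75.5% and 86.1% of capillary cells in LATS1/2-KO and in 41.7% and 29.4% in CTL (5 of 12 and 5 of 17 cells). At least 2 of 5 arterial genes were found in 34.7% and 29.2% in LATS1/2-KO and 58.3% and 64.7% in CTL. The exact 95% intervals of the CTL shares are wide, 15.2 to 72.3 and 10.3 to 56.0 for *Gpihbp1*.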
